A study of Mus musculus with 8 samples.

Results

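Tetraspanins are small membrane proteins that cross the membrane several times and gather other proteins into microdomains. They bind integrins, immunoglobulin-family proteins and proteases, and several of them travel through endosomes and lysosomes and are found on exosomes. In leukocytes they take part in adhesion, migration, antigen receptor signalling and the fusion of macrophages. Their messages were followed here for 8 genes, chosen as a list of names, out of 30406 genes shared by all libraries. The genes are Cd9, Cd37, Cd53, Cd63, Cd81, Cd82, Cd151 and Tspan18. All 8 were present in the files.

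The study examined leukocytes of the brain parenchyma and of 2 of its membranes, pia and dura, after ischemic stroke. Stroke was produced by transient middle cerebral artery occlusion (MCAO), in which a filament blocks the artery and is then withdrawn. Leukocytes were sorted as CD45+ cells that an antibody given into the blood had not labelled, so that cells inside vessels were left out, and single-cell RNA-seq was performed. The mice were adult C57BL/6 males, and the study's reporting summary states that experiments were pooled within a compartment.

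There were 8 libraries. The controls, without stroke, were 1 library each of brain, pia and dura. The study's methods name naive mice as controls for single-cell RNA-seq, whereas its figure legends name sham-operated mice. The part of the surgery itself in differences from control was not tested. Stroke was represented at 24 h by 2 libraries of brain and 1 each of pia and dura, and at 72 h by 1 library of brain. The libraries held 32457 annotated cells in 21 clusters. Over all deposited cells and genes, the total per library ranged from 6591898 to 20754181 UMIs (unique molecular identifiers, each counting 1 captured RNA molecule). Over the annotated cells and shared genes, which the levels below use, it ranged from 5721549 to 16162959 UMIs. UMIs were summed over the cells of a cluster in each library and expressed as CPM, the UMIs of a gene per 1000000 UMIs of the cells summed. A cluster in a library was used where it held at least 30 cells. Because these counts come from 3′ ends, a level in CPM is not corrected for length and is compared within a gene, not between genes. Clusters were also joined into classes, among them microglia, macrophages (CAM_1, CAM_2, Macro_1 and Macro_2, where CAM stands for CNS-associated macrophages), T, NK and innate lymphoid cells, and dendritic cells. SAMC are the stroke-associated myeloid cells.

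Before the genes are described, some facts about the libraries are needed. The second brain library at 24 h and the brain library at 72 h were counted with a list of 31053 genes, and the other 6 libraries with 32285 genes. In those 2 libraries Cd81 and Cd82 lay below every library of the longer list in 7 of 7 cell classes, and Cd53 in 6 of 7. The pattern included lymphocytes. In T, NK and innate lymphoid cells, Cd53 was 280 and 304 CPM in the 2 libraries, against 698 to 1093 CPM in the other 6. Against the first brain library at 24 h, the second was lower for Cd9, Cd53, Cd63, Cd81, Cd82 and Cd151 in 10 of 10 clusters that both held. Cd37 was lower in 3 of the 10. The median difference over those clusters was -1.46 on the log2 scale for Cd53 and -2.00 for Cd81, while the median over all genes was 0.23. For the 6 genes, the median share of all genes with a still lower difference ran from 3.83% for Cd81 to 13.9% for Cd9. How many of all genes were lower in every cluster, or below every library of the longer list, was not counted. The second brain library at 24 h also had the lowest median of UMIs per annotated cell, 1071, against 1193 to 2501 in the others. Its share of UMIs from mitochondrial genes was the highest, 2.39%, against 0.77% to 2.02%. The part of the gene list, or of anything else that sets these libraries apart, in the levels was not tested. Both are brain libraries after stroke, so several values are given with and without them. In addition, the study lists brain at 72 h and dura at 24 h under a later version of the 10x kit than the others. By that listing, kit and stroke cannot be told apart in dura. Dura at 24 h shared 12 to 27 cell barcodes with each other library of the longer list. The second brain library at 24 h shared 0 with each of those 6 libraries and 8 with brain at 72 h. Which kit each library was made with was not tested.

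Some class names also went against their markers. In macrophages of the control brain, 5 microglia markers (Tmem119, P2ry12, Sparc, Siglech and Cx3cr1) summed to 11952 CPM and 5 border macrophage markers (Pf4, Lyve1, Mrc1, Ms4a7 and Cd163) to 110 CPM, with Lyve1 at 0. In the first brain library at 24 h the sums were 3660 and 15.2 CPM. In pia and dura macrophages the microglia markers summed to 279 to 480.2 CPM and the border markers to 2940 to 3904 CPM. The opposite was seen in the dura, where microglia, 51 cells in the control and 76 at 24 h, carried 3647 and 1925 CPM of border macrophage markers beside 1170 and 629 CPM of microglia markers. These classes are therefore named below as the authors' clusters and not as pure cell types. Of markers of cells that a CD45 sort should remove, endothelial markers were at 9.40 to 41.7 CPM and fibroblast markers at 0 to 27.3 CPM over all annotated cells. By cluster mean, the microglia cluster stress_Micro led for oligodendrocyte (281 CPM), endothelial (122 CPM) and astrocyte markers (86.9 CPM). Mast cells led for platelet markers (64.1 CPM).

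**Figure D1:**
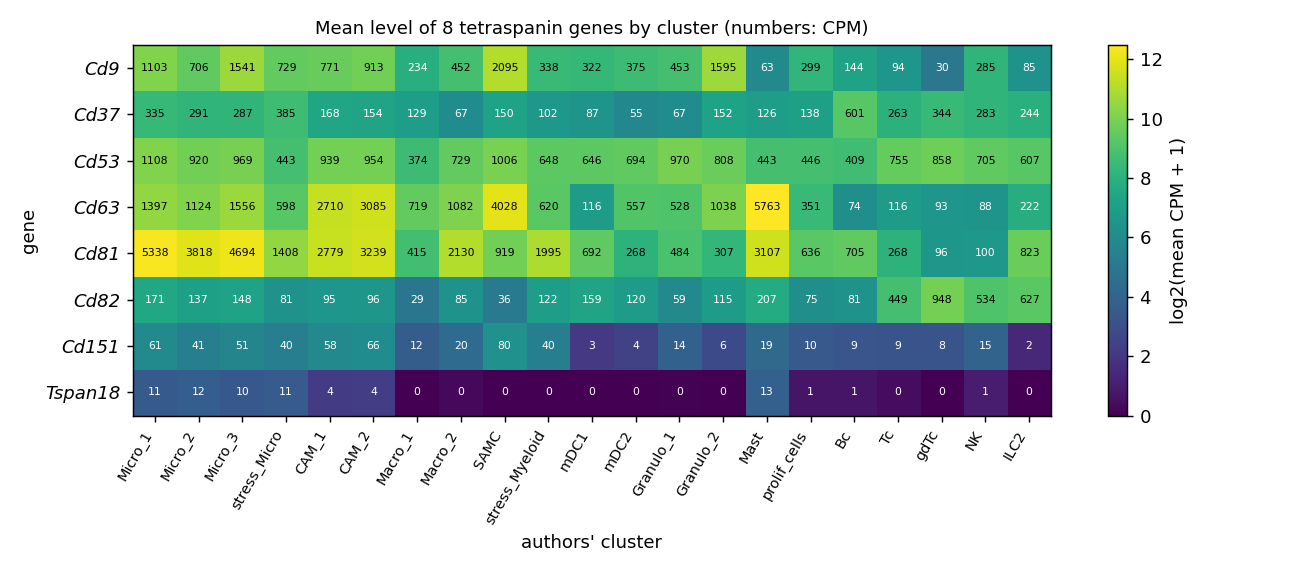
Mean level of each of the 8 genes (rows) in each of the 21 clusters (columns), over the libraries with at least 30 cells, as log2(mean CPM + 1) in colour and CPM in numbers. Cd63 peaked in Mast and SAMC, Cd81 in microglia, Cd82 in gdTc and Cd37 in B cells, while Cd53 was spread over all clusters.

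Each gene had its own distribution over leukocytes, as the map of mean levels by cluster shows. Because the same UMIs had served to define the clusters, their order is described here and not tested. Cd63 is a tetraspanin of late endosomes, lysosomes and secretory granules. Its level was 5763 ± 900 CPM in Mast (mast cells; SD, n = 2 libraries), which came from dura, where the libraries gave 5127 and 6399 CPM. SAMC followed with 4028 ± 1825 CPM (SD, n = 4), then CAM_2 with 3085 ± 1497 CPM (SD, n = 8) and CAM_1 with 2710 ± 1370 CPM (SD, n = 8). The ranges of these neighbours overlapped, but SAMC was above CAM_2 in 4 of 4 libraries and CAM_1 above Micro_3 in 6 of 6. Both libraries of Mast are of the longer gene list. With that list alone, SAMC held 5535 ± 918 CPM (SD, n = 2), close to Mast, and CAM_2 3506 ± 1511 CPM (SD, n = 6). At the other end, Cd63 was 88.1 ± 32.6 CPM in NK cells and 73.9 ± 47.2 CPM in B cells (SD, n = 6 each). For shares of cells, those with at least 1000 UMIs were thinned to that number and the others were left out. As means over libraries, 100% of mast cells then held a Cd63 UMI, against 88.6% of SAMC and 8.39% of B cells. The unthinned shares, which include the cells left out, were 99.5%, 90.3% and 8.01%. The share in B cells is taken as the background that free RNA can give.

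Cd81, a partner of integrins and other receptors in many cells, had its top levels in microglia. Micro_1 held 5338 ± 3153 CPM (SD, n = 7), Micro_3 4694 ± 2706 CPM (SD, n = 6) and Micro_2 3818 ± 2986 CPM (SD, n = 6). Micro_1 was above Micro_3 in 6 of 6 libraries. CAM_2 and Mast came next with 3239 ± 3857 (SD, n = 8) and 3107 ± 1167 CPM (SD, n = 2). The spread among libraries was wide with and without the 2 libraries of the shorter gene list, and with the 6 others alone Micro_1 held 6580 ± 2845 CPM (SD, n = 5). NK cells and gdTc (gamma delta T cells) held 99.8 ± 31.7 (SD, n = 6) and 95.8 ± 59.1 CPM (SD, n = 4). Among lymphoid clusters, ILC2 (type 2 innate lymphoid cells) and B cells stood above these with means of 823 and 705 CPM. After thinning, 47.4% of ILC2 and 45.6% of B cells held a Cd81 UMI, against 6.90% of NK cells. The unthinned shares were 48.9%, 45.5% and 11.6%.

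Cd82, a tetraspanin linked to the actin skeleton and to T cell co-stimulation, had its top levels in T, NK and innate lymphoid clusters, but not in B cells, where the mean was 81.1 CPM. It reached 948 ± 416 CPM in gdTc (SD, n = 4), 627 ± 351 CPM in ILC2 (SD, n = 5), 534 ± 337 CPM in NK (SD, n = 6) and 449 ± 201 CPM in Tc (T cells; SD, n = 8). The libraries of gdTc gave 327 CPM in brain at 72 h, 1145 CPM in pia at 24 h, 1112 CPM in control dura and 1208 CPM in dura at 24 h, so the 72 h library stood apart and the other 3 lay close together. Without the shorter gene list, gdTc held 1155 ± 48.8 CPM (SD, n = 3) and did not overlap the range of the next cluster, NK, with 731 ± 182 CPM (SD, n = 4). Tc then did not overlap mDC1 (a myeloid dendritic cell cluster), with 543 ± 117 (SD, n = 6) and 218 ± 49.3 CPM (SD, n = 4). SAMC were near the low end, with 36.2 ± 18.0 CPM (SD, n = 4).

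**Figure D2:**
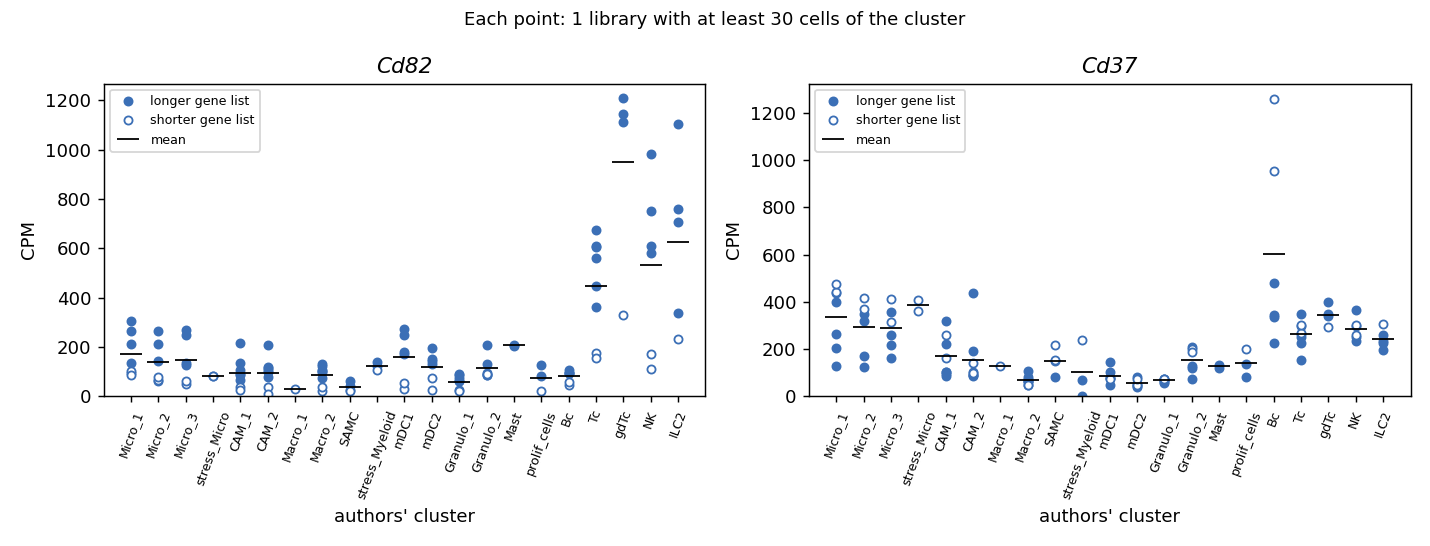
Level of Cd82 (left) and Cd37 (right) in CPM, by cluster. Each point is 1 library with at least 30 cells of the cluster, open points are the 2 libraries of the shorter gene list and bars are means. Cd82 was above 300 CPM in every library of gdTc, and the open points of Cd37 in B cells, 1262 and 956 CPM, lay above the filled ones.

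Cd37, which is restricted to leukocytes and abundant on mature B cells, had its highest mean in B cells, 601 ± 413 CPM (SD, n = 6). The 6 libraries ranged from 226 to 1262 CPM. The brain libraries, 1262 CPM at 24 h and 956 CPM at 72 h, were both above the pia and dura libraries, which ranged from 226 to 481 CPM. Here the libraries with the shorter gene list were the high ones, and brain B cells came from no other library, so tissue and gene list cannot be told apart. Without them gdTc led with 361 ± 32.7 (SD, n = 3) and B cells followed with 347 ± 104 CPM (SD, n = 4), with overlapping ranges. The lowest mean over all libraries was 55.3 ± 16.7 CPM in mDC2 (SD, n = 6), a dendritic cluster.

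Cd53 is a tetraspanin of nearly all leukocytes. Its cluster means ran from 374 CPM in Macro_1, with 1 library, to 1108 ± 502 CPM in Micro_1 (SD, n = 7), and ranges of neighbours overlapped all along the order. The library of Macro_1 was brain at 72 h, of the shorter gene list. With the longer list alone, SAMC led with 1546 ± 379 CPM (SD, n = 2), before Micro_1 with 1336 ± 385 CPM (SD, n = 5). Mast was then lowest with 443 ± 124 CPM (SD, n = 2), and ranges of neighbours again overlapped. Cd9 associates with integrins and with immunoglobulin-family proteins and is also known from platelets. Its mean was 2095 ± 1827 CPM in SAMC (SD, n = 4), 1595 ± 921 CPM in Granulo_2 (SD, n = 6), 1541 ± 507 CPM in Micro_3 (SD, n = 6) and 1103 ± 529 CPM in Micro_1 (SD, n = 7). These ranges overlapped, and SAMC was above Granulo_2 in 2 of 4 libraries. Without brain replicate 1 the mean of SAMC was 1218 CPM, below that of Granulo_2 and Micro_3 over all libraries. Of all clusters, Granulo_2 had the highest sum of the neutrophil markers S100a8, S100a9 and Retnlg. The other granulocyte cluster, Granulo_1, held 453 CPM of Cd9.

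Cd151, a partner of laminin-binding integrins, was a low gene with its highest mean in SAMC, 79.8 ± 51.7 CPM (SD, n = 4), followed by CAM_2 with 66.1 ± 39.3 CPM (SD, n = 8) and Micro_1 with 60.6 ± 20.0 CPM (SD, n = 7). Tspan18, known from endothelial cells, was close to the limit of detection, with 13.0 ± 1.34 CPM in Mast (SD, n = 2), 12.3 ± 15.3 CPM in Micro_2 (SD, n = 6) and 10.6 ± 9.06 CPM in Micro_1 (SD, n = 7). The 2 libraries of Mast held 1 and 2 UMIs, with 95% counting intervals of 0.31 to 67.2 and 1.69 to 50.4 CPM. The SD of Mast does not cover this counting error, so its place in the order is not settled. No UMI of Tspan18 was found in 8 of the 21 clusters, among them SAMC, gdTc and ILC2. In SAMC, a count of 0 allows up to 3 UMIs per library, from 1.30 CPM in brain at 72 h to 13.7 CPM in pia.

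Over the 21 clusters, the members with the most alike patterns were Cd81 and Tspan18 (Pearson's r of log2 mean CPM = 0.70), Cd63 and Cd81 (r = 0.70) and Cd63 and Cd151 (r = 0.67). Cd82 ran against Cd9 (r = -0.59) and Cd63 (r = -0.49). These values describe 21 clusters that share libraries and depth, and each r of Tspan18, here and below, rests on few UMIs. Among 6458 genes, the gene most like Cd151 was Tspan4, another tetraspanin (r = 0.92). On GRCm38 the pair lie close together on chromosome 7, with Cd151 at chr7:141467392-141471473 and Tspan4 at chr7:141475240-141493427, both on the plus strand, without overlap and with 3766 bases between them. Whether another gene lies between them was not examined. Cd82 and Tspan18, with 84605 bases between them on chromosome 2, had r = 0.0025. Scamp1 (r = 0.91) was most like Cd63, and Pmp22, a membrane protein with the tetraspan topology, was among the 3 genes nearest to both Cd63 (r = 0.84) and Cd81 (r = 0.89). Hlx (r = 0.90) was nearest to Cd9, Fli1 (r = 0.84) to Cd37, Tmbim6 (r = 0.80) to Cd53, Zbtb25 (r = 0.88) to Cd82 and Mlph (r = 0.92) to Tspan18.

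The promoters of Cd63, Cd81 and Cd53 are shown because Cd63 and Cd81 are the members followed most closely after stroke, and Cd53 is expressed in all clusters. Each line gives the 250 bases before a start in RefSeq on GRCm38.p6, read along the gene's strand, with the letters of 2 motifs in capitals. The motifs were GAGGAA, the core of sites for ETS factors, and GGGCGG, the GC box, on both strands (TTCCTC and CCGCCC). The windows are chr10:128909095-128909344 on the plus strand for Cd63, chr7:143052500-143052749 on the plus strand for Cd81 and chr3:106790150-106790399 on the minus strand for Cd53. The Cd63 window lies inside the gene as GENCODE M21 draws it, which starts further upstream.
Cd63: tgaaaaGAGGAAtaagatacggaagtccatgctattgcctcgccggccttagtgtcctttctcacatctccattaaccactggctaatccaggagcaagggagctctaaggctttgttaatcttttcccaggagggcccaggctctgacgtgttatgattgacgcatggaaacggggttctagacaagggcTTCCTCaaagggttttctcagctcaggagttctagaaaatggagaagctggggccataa
Cd81: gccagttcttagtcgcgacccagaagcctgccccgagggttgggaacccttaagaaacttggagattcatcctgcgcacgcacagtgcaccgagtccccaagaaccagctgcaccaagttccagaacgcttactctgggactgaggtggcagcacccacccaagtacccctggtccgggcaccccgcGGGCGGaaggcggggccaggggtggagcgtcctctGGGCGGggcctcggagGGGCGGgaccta
Cd53: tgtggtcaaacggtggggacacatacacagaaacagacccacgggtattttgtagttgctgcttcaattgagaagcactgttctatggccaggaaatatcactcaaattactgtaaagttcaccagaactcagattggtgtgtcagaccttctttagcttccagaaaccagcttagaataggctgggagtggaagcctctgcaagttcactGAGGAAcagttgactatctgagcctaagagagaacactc

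The Cd81 window held 3 GC boxes and no GAGGAA. The Cd63 window held 2 copies of GAGGAA and the Cd53 window 1, and neither held a GC box. Of 32851 promoter windows of this length, 32.7% held a GC box and 23.3% held GAGGAA. The E-box CACGTG was also searched, was in none of these 3 windows and was in 6.02% of all. The first 2 motifs are common, so a match says nothing about which factor binds.

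The next comparison asked how SAMC differ from the cells around them. Cd63 and Cd9 are among the genes by which the study described SAMC, so the direction for these genes is no independent result. Ratios were taken within each of the 4 libraries with SAMC, which were brain at 24 h (both), brain at 72 h and pia at 24 h. The macrophages they refer to carried different amounts of microglia markers, from 316 CPM in pia to 3660 CPM in brain replicate 1, and the part of these in the ratios was not tested. Cd63 in SAMC was 6184 and 2328 CPM in brain at 24 h, 2717 CPM in brain at 72 h and 4886 CPM in pia. Cd9 was 4725, 1851, 593 and 1210 CPM in the same order. The levels differed several-fold between libraries, while the ratios of both genes to macrophages were above 0 in each. Against macrophages the mean log2 ratio was 1.44 ± 0.64 for Cd9, 1.02 ± 0.42 for Cd63, 0.81 ± 0.49 for Cd151 and 0.33 ± 0.11 for Cd53 (SD, n = 4), and each was higher in 4 of 4 libraries. Over all 7610 genes, 9.25% were higher in every library and 11.4% were lower in every library. Cd82 was lower in 4 of 4, with -0.56 ± 0.58. Cd81 was lower in brain replicate 1 and in pia, and higher in the 2 libraries of the shorter list.

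Against microglia of the same library the set divided. Cd63 was higher in SAMC in 4 of 4 libraries, with a mean log2 ratio of 1.62 ± 0.25 (SD, n = 4). Cd81 was lower in 4 of 4 with -2.27 ± 1.13, Cd82 with -1.68 ± 0.60 and Cd37 with -1.18 ± 0.28 (SD, n = 4 each). Of 7918 genes, 16.8% were higher in every library and 24.6% were lower in every library. Cd9 was higher in 3 of 4, since at 72 h the ratio was -0.99 and in the other libraries 0.94 to 1.58. Microglia themselves exceeded macrophages for Cd81 and Cd37 in 8 of 8 libraries, with mean log2 ratios of 1.12 ± 1.35 and 1.13 ± 0.68 (SD, n = 8), and 10% of 7685 genes were higher and 3.08% lower in every library. The smallest of these ratios came from the control brain, 0.01 for Cd81 and 0.13 for Cd37, whose macrophages carried the most microglia markers. In brain replicate 1, whose macrophages also carried them, the ratios were 0.50 and 0.79. In control dura, whose microglia carried border macrophage markers, they were 0.09 and 0.71. The part of these markers in the ratios was not tested.

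**Figure D3:**
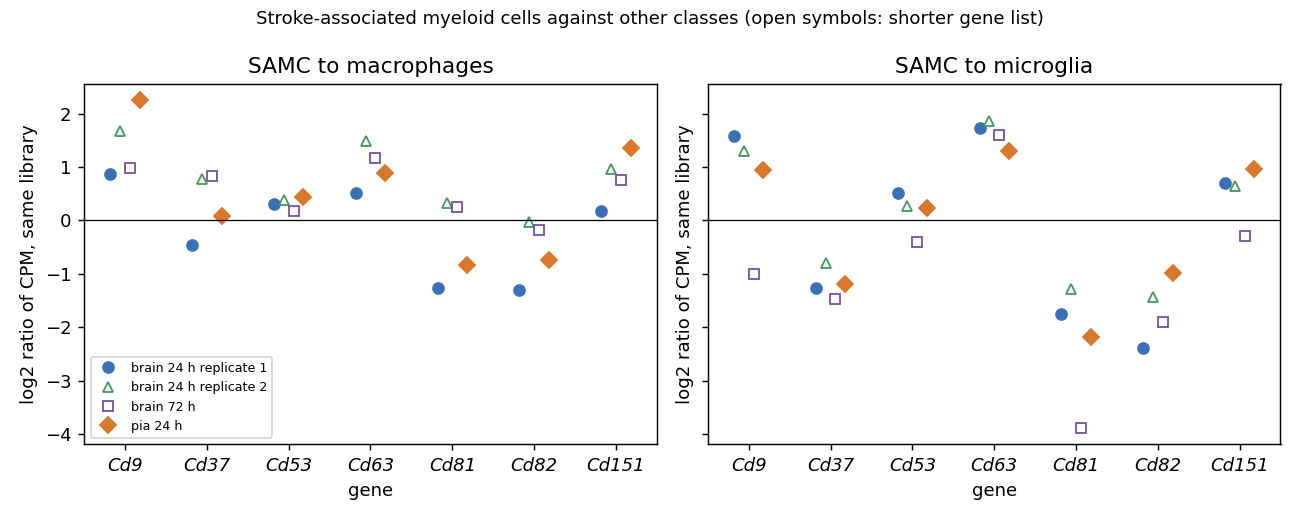
log2 ratio of CPM in SAMC to macrophages (left) and to microglia (right) of the same library, for 7 genes. Each symbol is 1 library, and open symbols are the libraries of the shorter gene list. Cd9 and Cd63 lay above 0 in all 4 libraries against macrophages, while Cd81 and Cd82 lay below 0 in all 4 against microglia.

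Stroke was compared with control at 24 h to ask which tetraspanin messages change in microglia and macrophages. In both classes Cd63 was higher and Cd81 lower in pia, dura and the first brain library, and other clusters of these libraries are described after them. In macrophages, Cd63 was 1126 CPM in control brain, 1576 CPM in control pia and 1855 CPM in control dura. At 24 h it was 4350 and 827 CPM in the brain libraries, 2625 CPM in pia and 3272 CPM in dura. The 24 h libraries were thus above the control of their tissue except brain replicate 2. In microglia, Cd63 was 819 CPM in control brain, 1104 CPM in control pia and 2143 CPM in control dura, and at 24 h 1861 and 638 CPM in brain, 1992 CPM in pia and 3048 CPM in dura, again with brain replicate 2 as the exception.

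Cd81 went the other way. In macrophages it was 9474 CPM in control brain, 2975 CPM in control pia and 3129 CPM in control dura. At 24 h it was 4783 and 479 CPM in brain, 1631 CPM in pia and 2133 CPM in dura, so every 24 h library was below the control of its tissue. The microglia markers in these macrophages also went from 11952 to 3660 and 1309 CPM in brain and from 480.2 to 316 CPM in pia, and from 279 to 314 CPM in dura. In microglia, Cd81 was 9521, 6254 and 3313 CPM in control brain, pia and dura. At 24 h it was 6754 and 1458 CPM in brain, 4151 CPM in pia and 2531 CPM in dura. The microglia marker sum fell along with it, from 16170 to 10103 and 6391 CPM in microglia of the brain and from 5986 to 3009 CPM in those of the pia, and the part of these markers in the Cd81 values was not tested.

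**Figure D4:**
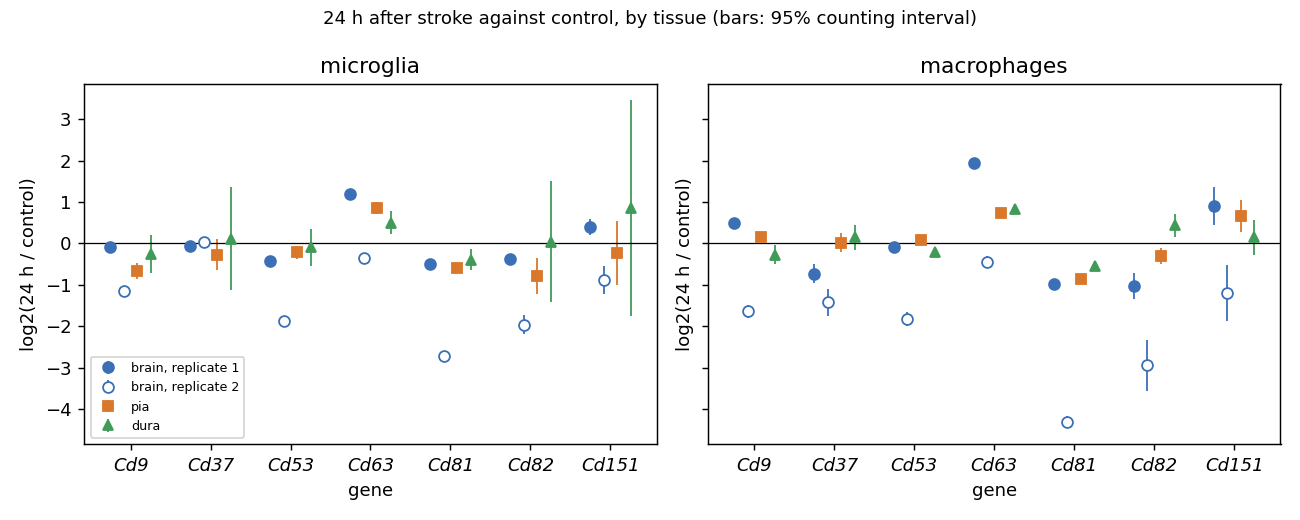
log2 ratio of the 24 h library to the control of its tissue in microglia (left) and macrophages (right), for 7 genes. Symbols are tissues, the open circle is brain replicate 2, and bars are 95% counting intervals of single libraries. Cd63 lay above 0 and Cd81 below 0 in brain replicate 1, pia and dura, and brain replicate 2 lay below 0 for both.

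In numbers, the mean log2 difference over brain replicate 1, pia and dura was 1.17 ± 0.68 for Cd63 and -0.80 ± 0.22 for Cd81 in macrophages, and 0.85 ± 0.34 and -0.49 ± 0.10 in microglia (SD, n = 3 tissues). In macrophages 32.2% of genes were higher in these 3 tissues and 20.8% lower, and in microglia 23.4% were higher and 16% lower, so a shared direction is common among all genes. In the single clusters CAM_1, CAM_2 and Macro_2 the directions were the same, with Cd63 higher in 3 of 3 tissues and Cd81 lower in 3 of 3. Both directions were also seen outside the myeloid clusters. In Tc the mean was 0.97 ± 0.86 for Cd63 and -1.09 ± 1.02 for Cd81 (SD, n = 3 tissues), again in 3 of 3 tissues. Of all genes in Tc, 13.3% were higher in all 3 and 18% lower. Cd63 in Tc was near the level of B cells, taken above as background. After thinning, 6.52% of Tc held a UMI against 8.39% of B cells, and unthinned 9.17% against 8.01%. The means were 116 ± 83.5 CPM in Tc (SD, n = 8) and 73.9 ± 47.2 CPM in B cells (SD, n = 6). The brain value rests on 31 control cells and 33 cells at 24 h. The part of free RNA in the Tc values was not tested. Over single clusters, Cd63 was higher in 7 of 7 in brain replicate 1, 11 of 14 in pia and 14 of 14 in dura. Cd81 was lower in 7 of 7 and 14 of 14 in brain replicate 1 and pia, and in 8 of 14 in dura. Cd53 was lower in 14 of 14 in dura. Clusters of a library are not replicates, and how many of all genes reached such counts was not counted. In the same order of tissues, the median share of genes with a lower difference was 96.9%, 71.8% and 88.5% for Cd63. For Cd81 it was 11.8%, 16.0% and 49.6%. For brain replicate 2 the differences in macrophages were -0.45 for Cd63 and -4.30 for Cd81. Cd9 and Cd53 in microglia were lower in 3 of 3 tissues, with -0.33 ± 0.30 and -0.24 ± 0.16.

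The test over samples was edgeR's quasi-likelihood fit with tissue and condition, on all genes, with Benjamini-Hochberg adjustment and a threshold of 0.05. With all 8 libraries it called 0 of 10213 genes in microglia (0%), where 223 genes had an unadjusted p under 0.05 and DESeq2 called 8. In macrophages it called 0 of 10887 (0%; 468 unadjusted, DESeq2 17), in T, NK and innate lymphoid cells 0 of 8374 (0%; 138 unadjusted, DESeq2 0) and in dendritic cells 0 of 9023 (0%; 218 unadjusted, DESeq2 2), the last without the control brain, which had too few such cells. No member was called. The log2 fold change of Cd63 was 0.60 (SE 0.49, adjusted p = 1.00) in microglia and 0.89 (SE 0.64, adjusted p = 0.984) in macrophages. For Cd81 it was -0.83 (SE 0.55, adjusted p = 1.00) and -1.23 (SE 0.77, adjusted p = 0.984).

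The calls depended on brain replicate 2. Brain at 72 h is a single library with a term of its own. Without replicate 2, the 24 h difference therefore comes from the same 6 libraries as with the longer gene list. These 2 settings are not separate results, here or in T, NK and innate lymphoid cells, and differ in the genes filtered and the fitted spread. In both, no tissue and time was replicated. Their p-values therefore rest on how much the 24 h difference varied between tissues, and not on a spread between replicate libraries. In microglia, leaving out brain replicate 1 gave 48 calls and leaving out control pia gave 9, and in neither was Cd63 or Cd81 called. Without brain replicate 2, 499 genes (6.16%) were called in microglia and 353 (3.3%) in macrophages, and Cd63 was called in both, with log2 fold changes of 0.84 (adjusted p = 0.000186) and 1.11 (adjusted p = 0.0464). Cd81 was then called lower in macrophages, with -0.85 (adjusted p = 0.0477). With the 6 libraries of the longer gene list, a choice made after the data were seen, 5.08% of genes were called in microglia and 1.79% in macrophages. Cd63 rose in microglia, by 0.81 (SE 0.17, adjusted p = 0.00828). In macrophages the fold changes were 1.10 for Cd63 (SE 0.26, adjusted p = 0.0671) and -0.86 for Cd81 (SE 0.19, adjusted p = 0.0616), which did not pass. Of 7 members tested, 1 was called in microglia and 0 in macrophages.

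The same test was applied to lymphoid and dendritic cells. The dendritic fits lack the control brain, so their 24 h difference comes from the pia and dura libraries alone. The brain libraries change only the genes filtered and the fitted spread there. Dendritic fits that differ only in brain libraries are therefore not separate results. Once either brain library at 24 h is left out, no tissue and time is replicated in them. By the study's kit listing, kit version and stroke cannot be told apart in the dura part of the dendritic difference. In T, NK and innate lymphoid cells with the longer list, 2.95% of genes were called and 0 of 6 members. Cd53 had a log2 fold change of -0.34 (SE 0.10, adjusted p = 0.0714) and Cd82 of 0.39 (SE 0.16, adjusted p = 0.256). With all libraries the values were -0.43 and 0.21. Without brain replicate 2, where 3.82% of all genes were called, both were called, Cd53 with -0.35 (adjusted p = 0.014) and Cd82 with 0.38 (adjusted p = 0.0188). Over brain replicate 1, pia and dura, the smallest log2 difference of Cd82 in this class was 0.013. In Tc alone, Cd82 was higher in 2 of these tissues and lower in 1. The class joins clusters of unlike Cd82 level, and the part of their mix was not tested. In dendritic cells, 1.34% of genes were called with the longer list and 0 of 6 members. Cd63 there was 349 CPM in control pia and 516 CPM at 24 h, and 223 CPM in control dura and 593 CPM at 24 h, with a fold change of 0.93 (SE 0.70, adjusted p = 1.00) in all libraries and 0.93 (SE 0.25, adjusted p = 0.0942) with the longer list. It was called when either brain library at 24 h was left out, with 0.94 without replicate 1 (adjusted p = 0.00764, 2.35% of all genes called) and 0.94 without replicate 2 (adjusted p = 0.0135, 2.28% called).

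**Figure D5:**
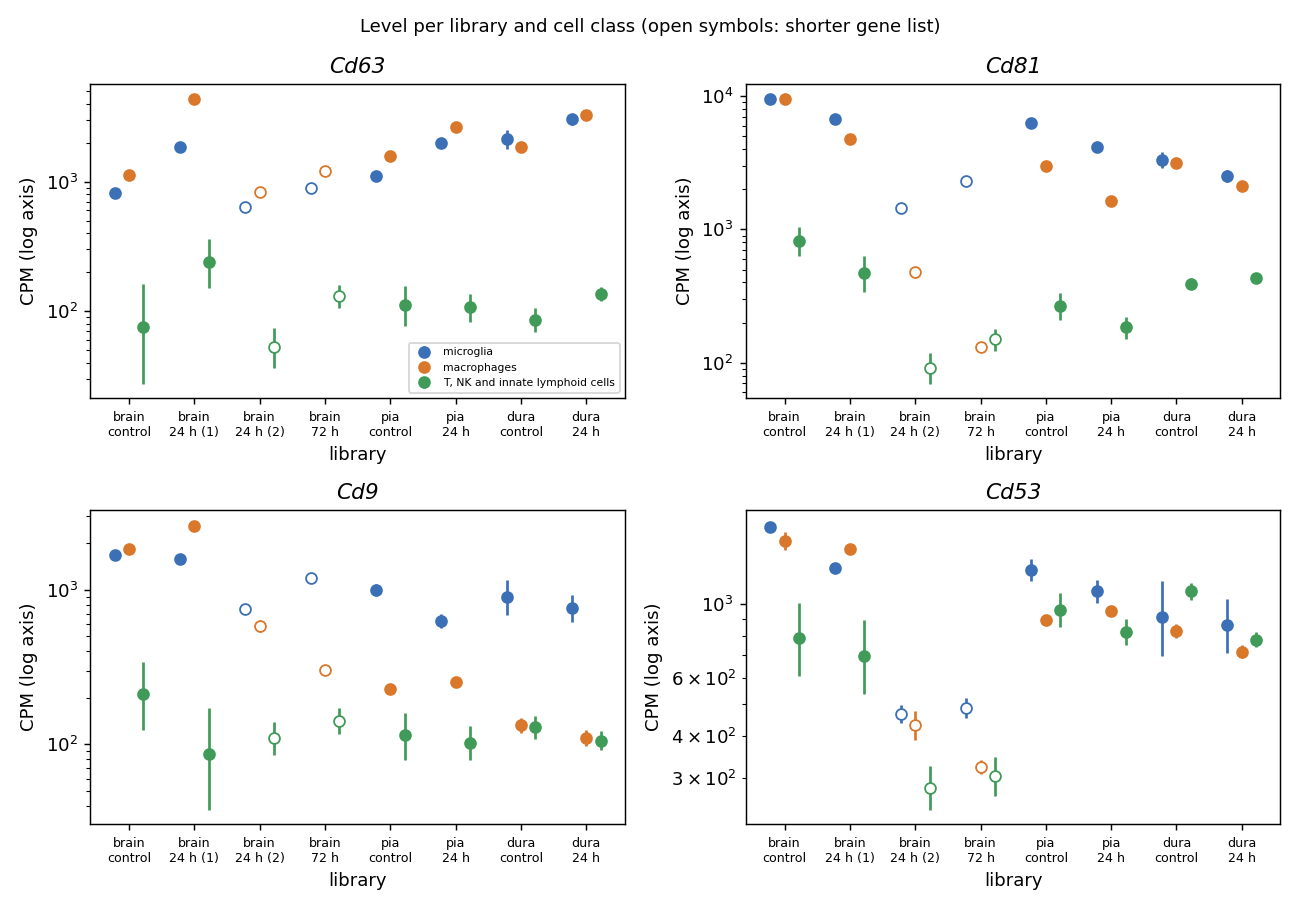
Level of Cd63, Cd81, Cd9 and Cd53 in CPM (log axis) by library, in microglia, macrophages and T, NK and innate lymphoid cells. Points are single libraries with 95% counting intervals, and open points are the shorter gene list. The open points of Cd53 lay below the filled ones in each of the 3 classes, and Cd9 in macrophages of brain lay above pia and dura.

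At 72 h the brain was measured once, in a library with the shorter gene list and, by the study's listing, another kit version. Time, list and any difference of kit cannot be told apart. Set beside the 24 h library with the same list, microglia at 72 h held 895 CPM of Cd63 against 638 CPM, 2293 CPM of Cd81 against 1458 CPM and 1181 CPM of Cd9 against 753 CPM. Macrophages held 1208 CPM of Cd63 against 827 CPM, and less Cd81, 131 against 479 CPM. Macrophages of the 72 h library also had fewer microglia markers, 726 against 1309 CPM. Over the 15 clusters that both libraries held, Cd63 was higher at 72 h in 11, Cd81 in 10 and Cd53 in 9. In SAMC, Cd9 was 593 CPM at 72 h against 1851 CPM, while Cd63 was 2717 against 2328 CPM.

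Tissue was the last comparison, of brain with the mean of pia and dura in the same fit. In macrophages 2.68% of genes were called with all libraries, and 0 of 8 members. Cd9 came nearest. It was 1819, 2570, 584 and 301 CPM in control brain, the brain libraries at 24 h and brain at 72 h, and 228 and 254 CPM in pia and 133 and 110 CPM in dura, so brain and membranes did not overlap. How many of all genes likewise did not overlap was not counted. The log2 fold change of Cd9 was 2.85 (SE 0.57, adjusted p = 0.0519). DESeq2, which called 8.8% of all genes, called it with 2.84 (adjusted p = 1.79e-05). Within the single cluster Macro_2 it was 1.29 (adjusted p = 0.274), which did not pass. With the longer list 35.9% of genes were called, and 4 of 7 members were higher in brain, namely Cd9 with 3.26 (adjusted p = 3.68e-05), Cd37 with 1.39 (adjusted p = 0.00188), Cd81 with 1.09 (adjusted p = 0.00407) and Cd151 with 1.21 (adjusted p = 0.00247). The 2 brain libraries in that fit are those whose macrophages carried 3660 and 11952 CPM of microglia markers, and the part of such cells in the 4 calls was not tested. With all libraries Cd37, Cd81 and Cd151 had 1.08, 0.53 and 0.76 in the whole class, and -0.14, -1.55 and -0.72 within Macro_2. With all libraries the 292 calls became 0 when control brain or any pia or dura library was left out.

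In T, NK and innate lymphoid cells 0.728% of genes were called with all libraries and 0 of 7 members, and Cd81 had a log2 fold change of 0.20 (SE 0.49, adjusted p = 0.870) that turned to -0.27 without control brain. With the longer list 3.97% were called and 1 of 6 members, Cd81, higher in brain by 0.99 on the log2 scale (SE 0.21, adjusted p = 0.00832). Its levels were 813 and 469 CPM in the 2 brain libraries of that fit, 265 and 184 CPM in pia and 392 and 435 CPM in dura. These brain lymphocytes, 61 and 65 cells, also held 650.4 and 239.9 CPM of microglia markers, against 9.88 to 53.8 CPM in pia and dura, and what these add to Cd81 was not tested.

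Of 23 other tetraspanins, 6 were named by their mean CPM, and each is given in the cluster where it was highest, without comparing the genes. Tspan13 held 1089 ± 609 CPM in ILC2 (SD, n = 5). Tspan3 had its top mean in mDC2 with 317 CPM, Tspan32 in ILC2 with 195 CPM, Tspan31 in CAM_2 with 179 CPM, Tspan4 in SAMC with 161 CPM and Tspan14 in Micro_1 with 145 CPM. After stroke, with all libraries, 0 of 14 tested in microglia and 0 of 12 in macrophages were called, and their median log2 fold changes were -0.33 and -0.48, against 0.14 and 0.06 over all genes. With the longer list, 1 of 10 in microglia (5.08% of all genes) and 1 of 12 in macrophages (1.79%) was called, and in both it was Upk1b, a tetraspanin known from urothelium, with -1.87 (adjusted p = 0.00014) and -3.93 (adjusted p = 0.0298). Upk1b was also the 1 of 12 called in macrophages by tissue with all libraries (2.68% of all genes), higher in brain. Its highest cluster mean was in Micro_1, with 59.3 ± 83.3 CPM (SD, n = 7). Brain macrophages carried more microglia markers than those of pia and dura, and fewer at 24 h than in the control. The part of these markers in the Upk1b values was not tested. In the tissue comparison of macrophages with the longer list 7 of 12 were called higher and 2 lower, where 35.9% of all genes were called.

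Among genes that act with tetraspanins, a list of integrins, proteases, receptors and exosome factors, 0 of 19 tested in macrophages and 0 of 17 in microglia were called after stroke with all libraries. With the longer list, 2 of 17 were called higher in macrophages, where 1.79% of all genes were called. Timp1, a ligand of Cd63, rose by 3.35 (adjusted p = 0.0298) and Ifitm1, a membrane protein found with Cd81, by 2.29 (adjusted p = 0.0267). By tissue with all libraries, 3 of 19 were called in macrophages, where 2.68% of all genes were called. Itga6, an integrin chain of the laminin receptors, was higher in brain by 2.13 (adjusted p = 0.0454), while Vcam1, an adhesion ligand for leukocyte integrins, and Cd36, a scavenger receptor, were lower, with -4.80 (adjusted p = 0.0109) and -3.22 (adjusted p = 0.0419). With the longer list 4 of 17 were called higher and 7 lower, where 35.9% of all genes were called and the brain macrophages carried 3660 and 11952 CPM of microglia markers. In the other classes with the longer list, Itgb1, an integrin chain, was called in T, NK and innate lymphoid cells at 24 h with -0.69 (adjusted p = 0.0106, 2.95% of all genes called). Timp1 was called in dendritic cells at 24 h with 1.67 (adjusted p = 0.0287, 1.34% called). Ifitm3 was called in T, NK and innate lymphoid cells by tissue with -2.46 (adjusted p = 0.044, 3.97% called).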

How the data were processed

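The authors made the deposited UMI counts per gene and cell with Cell Ranger 6.0 on mm10, from 10x 3′ libraries, without normalization. The deposited annotation gives the authors' cluster of each cell, after their removal of low-quality cells and doublets. One label of the library used here as control pia says brain, whereas the tissue given for it is pia. The reporting summary gives pooled animals for a compartment and not for a library, so libraries were the replicates. Only brain at 24 h had more than a single library. With all libraries, p-values measure the spread between replicate libraries, which may be technical, and how much stroke differences varied between tissues. With the longer gene list, or with either brain library at 24 h left out, they rest on that variation between tissues alone. Library pairs shared 0 to 32 cell barcodes.

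Genes were matched by Ensembl identifier. UMIs were summed per library and cluster (at least 30 cells) and divided by the sum over the shared genes. Single-library intervals are exact Poisson at 95%, and those of ratios are normal on the log scale. They cover counting error, and a count of 0 was taken to allow 3. For ratios 0.5 counts were added. Ratios and directions over all genes used those with a mean of at least 10 CPM. Fits used edgeR 4.0.16 (filterByExpr, TMM, robust quasi-likelihood, two-sided) in R 4.3.3. The alternatives were DESeq2 1.42.0, no filter on low counts, 1 cluster per class, other scalings, cell minimums and priors, thinning, and leaving out each library. The fits were first tested on simulated counts. Other steps used Python 3.11.15.

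The members, gene lists and comparisons were chosen with earlier results of these data known. The members were named in all results. Of other tetraspanins the 6 with the highest mean, and of partner genes those called with all libraries and, outside the tissue comparison of macrophages, with the longer gene list, were named, along with genes most alike in pattern over clusters, among genes with a mean of 50 CPM in some cluster. Upk1b was named after its values were seen. One further microglia marker is not reported here and was left out of the marker sums.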

Additional observations from a re-analysis of the deposited data

Results flagged for a closer look

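In several classes a 24 h library differed from control in opposite directions in 2 tissues, with both counting intervals away from 0. These values rest on single libraries, and the difference between tissues was not tested. In macrophages, the log2 difference of Cd9 was 0.16 in pia and -0.27 in dura, and that of Cd53 was 0.083 in pia and -0.21 in dura. Cd82 in macrophages was 0.44 in dura, against -0.30 in pia and -1.03 and -2.94 in the brain libraries. In dendritic cells, Cd81 was -2.48 in pia and 0.25 in dura. In granulocytes, Cd53 was 0.51 in pia and -0.54 in dura, whereas Cd63 was -1.24 in pia and 0.38 in dura. The granulocytes of control pia were 65 cells and carried 2138 CPM of border macrophage markers, against 176 CPM in pia at 24 h.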

How the results depend on the processing

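The number of genes called at 24 h against control, 0 in each class with all libraries, was in microglia 8 with DESeq2, 16 without the filter on low counts and 321 with the longer gene list only. In macrophages it was 17, 70 and 169, and 2 with Macro_2 alone. In T, NK and innate lymphoid cells it was 7 without the filter and 170 with the longer list. In dendritic cells it was 2 with DESeq2, 5 without the filter, 107 with the longer list and 142 with mDC2 alone. By tissue, the macrophage count of 292 was 958 with DESeq2, 1198 without the filter, 36 in Macro_2 and 3386 with the longer list, and the count of 61 in T, NK and innate lymphoid cells was 97, 317 without the filter and 229 with the longer list. Leaving out 1 library at a time gave 0 to 499 calls in microglia, 0 to 353 in macrophages, 0 to 313 in T, NK and innate lymphoid cells and 0 to 209 in dendritic cells, and by tissue 0 to 3554 in macrophages and 0 to 664 in T, NK and innate lymphoid cells. The cause was not tested.

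Among the alternative values for the fold changes of members, 121 kept direction and side of the threshold, 22 passed it in addition and 12 changed sign. Cd9 in macrophages at 24 h was 0.22 in Macro_2, 0.077 with the longer list and -0.68 to 0.091 without 1 library. By tissue in Macro_2, Cd37 was -0.14, Cd81 -1.55 and Cd151 -0.72. Without 1 library, Cd81 in macrophages by tissue ran from -0.24 to 1.07, Cd82 in T, NK and innate lymphoid cells at 24 h from -0.16 to 0.51 and Cd81 in the same cells by tissue from -0.27 to 0.90. The SAMC ratio of Cd37 to macrophages was -0.19 with the longer list and that of Cd151 to microglia -0.012 with a minimum of 10 cells. Tspan18 in Mast was 8.67 CPM with a minimum of 10 cells and 15.3 CPM in cells of at least 1000 UMIs. The longer gene list was chosen after the data were seen. No paired analysis was possible because the only replicate numbers above 1 are in brain at 24 h, so the groups compared share fewer than 2 numbers. Each condition and tissue but 1 had a single library, and low genes such as Tspan18 and Cd151 rest on few UMIs.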
